A study of Mus musculus with 8 samples.

Results

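The genes described here encode matricellular proteins, secreted proteins that sit in the extracellular matrix and act on cells more than they bear load. The 10 genes are the thrombospondins Thbs1, Thbs2, Thbs3 and Thbs4, the fasciclin domain proteins Postn (periostin) and Tgfbi, tenascin C (Tnc), osteopontin (Spp1), Sparc and fibronectin (Fn1). They were chosen by their gene symbol on the array platform, where 13 features carry 1 of these symbols, and each gene was represented by its feature with the highest mean over all arrays. All 10 passed the filter on dim features and stand among 17234 tested genes, Thbs4 only narrowly. The number of gene symbols on the array was 20863.

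The tissue was lung of C57Bl/6J mouse pups that had breathed 85% oxygen between postnatal days 0 and 3. There were 4 arrays of pups labelled Fgf10 +/- (heterozygous for Fgf10, titled TG) and 4 arrays of pups labelled wild-type (titled WT), both groups under the same oxygen and none in room air. The series' design text calls the samples independent. No source used here gives litters, sexes or pooling, and the p-values therefore cover only how far these samples spread. Values are log2 intensities of Agilent arrays hybridised with Cy3, and a difference of 1 on this scale is a doubling.

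Matricellular proteins bind matrix fibres, growth factors and cell surface receptors at once, and many are made in bursts during development and repair. Thrombospondins 1 and 2 form trimers that bind CD36 and CD47, and thrombospondin 1 can release TGF-beta from its latent complex. Periostin and its relative TGFBI link collagen to integrins, and fibronectin is the scaffold on which other matrix proteins are laid down. Osteopontin binds integrins through an arginine-glycine-aspartate motif and also binds CD44. In the newborn lung many of these proteins are made by mesenchymal cells as alveolar septa form, among other sources, and macrophages are a source of osteopontin.

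Fgf10 read 7.81, 7.99, 8.10 and 8.28 on arrays 1 to 4 labelled Fgf10+/-, against 7.53, 8.16, 7.91 and 7.64 on wild-type arrays, a difference of 0.23 (two-sided exact permutation test, p = 0.2). All 10 Fgf10 features had the higher mean in samples labelled Fgf10+/-. Which exons the allele lacks and where the features lie are unknown here, the features therefore check no label, and every direction below rests on the labels. Lung markers were present on all 8 arrays, with the surfactant protein gene Sftpc at the top of the scale, Nkx2-1 between 10.26 and 11.02 and Ager between 12.02 and 12.55. Wild-type array 1 had the highest mean over the macrophage markers. Wild-type array 4 was the highest for all 4 markers of mesothelium, the cell layer that covers the lung. It also had the highest mean over the cardiac muscle markers, but was the highest for only 3 of those 5. Among them Nppa stood far above the other arrays, at 11.25. Wild-type array 2 had the highest hepatocyte markers.

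Of the 10 matricellular genes, 3 were lower in lungs labelled Fgf10+/-, none was higher and 7 did not pass the test. The genes that fell were Spp1, by 4.16-fold, Thbs2, by 1.82-fold, and Postn, by 1.39-fold. Across all 17234 genes 0.569% were called lower and 0.226% higher, 0.795% in all (limma, adjusted p below 0.05). In 5 of the 10 genes, Spp1, Thbs2, Postn, Thbs1 and Fn1, all 4 samples labelled Fgf10+/- read below all 4 wild-type arrays, as did 3.51% of all genes. None of the 10 lay apart upward, as 3.13% of all genes did, and 6.64% of all genes lay apart in either direction. At an unadjusted limma p below 0.05 these 5 were lower, against 5.79% of all genes. The median log2 fold change of the 10 genes was -0.34, against 0.01 over all tested genes, and 8 of the 10 had a negative sign. These are counts of chosen genes and carry no test of the group.

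**Figure D1:**
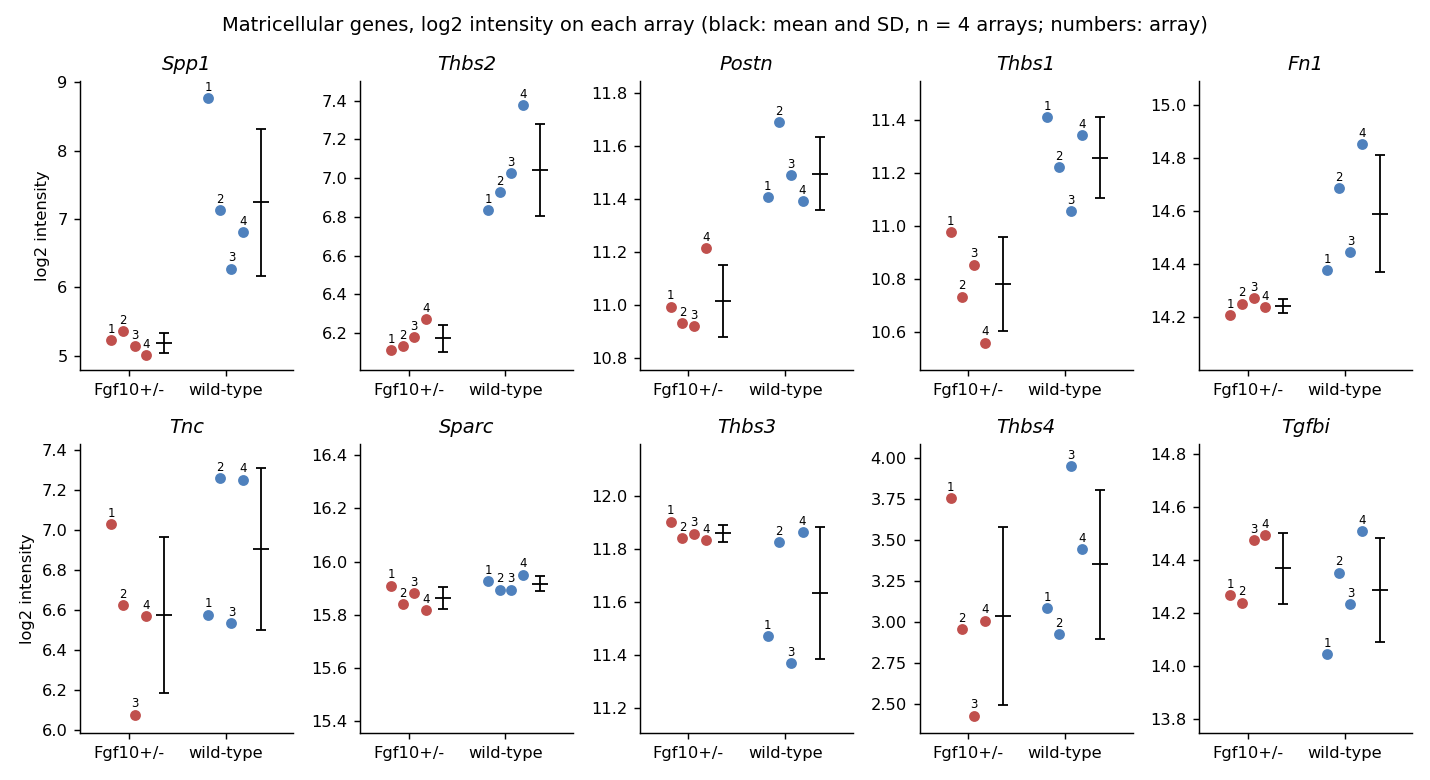
Log2 intensity of the 10 matricellular genes on each of 4 samples labelled Fgf10+/- (left, red) and 4 wild-type arrays (right, blue), with array numbers above the points and group mean and SD in black. The groups do not overlap for Spp1, Thbs2, Postn, Thbs1 and Fn1, and overlap for the other 5 genes. Each panel has its own vertical range.

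Osteopontin had the largest difference of the 10. Spp1 read 5.23, 5.36, 5.14 and 5.01 in samples labelled Fgf10+/-, against 8.77, 7.12, 6.28 and 6.80 on wild-type arrays. The samples labelled Fgf10+/- lay close together, while the wild-type arrays spread widely, with array 1 the highest and array 3 the lowest, and the gap between the groups was 0.92. Its average was 5.19 ± 0.15 with the Fgf10+/- label, against 7.24 ± 1.07 in wild type (SD, n = 4 each). The fitted log2 difference was -2.06 (limma adjusted p = 0.0307, 95% CI -2.93 to -1.19). Without wild-type array 1 the change was -1.55 and was called (limma adjusted p = 0.0102), but in 6 of the 8 runs with 1 array omitted it was not (limma adjusted p between 0.0606 and 0.097).

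Macrophages are a known source of osteopontin, and wild-type array 1, the highest for Spp1, was also the highest for the mean of the macrophage markers. The markers did not run alike on that array, which was the highest of the 8 for 7 of the 14, the lowest for Marco and Mrc1 and the second lowest for Itgax and Siglecf. The mean level of the 14 macrophage markers, all of them tested, ranged from 8.11 to 8.34 in samples labelled Fgf10+/- but from 8.24 to 8.74 in wild-type samples, so the groups overlapped. None of the 14 was called, and their median log2 fold change was -0.25, with 9 negative and 5 positive signs. At an unadjusted limma p below 0.05 there were 5, of which Csf1r, C1qa, C1qb and C1qc had negative values and Itgax a positive value of 0.53. Siglecf had 0.56 without reaching that level. The defining markers Adgre1 and Csf1r were well above the filter level. Adgre1 averaged 7.44 in samples labelled Fgf10+/-, against 8.03 in wild-type samples. Csf1r averaged 12.03 in samples labelled Fgf10+/-, against 12.28 in wild-type samples, and was the only 1 of the 14 whose groups lay apart. Cd68 lay nearer the filter level, averaging 3.91 in samples labelled Fgf10+/-, against 4.68 in wild-type samples. It differed by -0.77 on the log2 scale, and its groups overlapped. The marker scores of wild-type arrays 2 and 3, -0.10 and -0.13, lay inside the range of the samples labelled Fgf10+/-, -0.26 to -0.02, while Spp1 on those 2 wild-type arrays lay above all samples labelled Fgf10+/-. The part of macrophage number in the Spp1 difference was not tested. In bulk tissue, fewer cells of a type and less RNA per cell cannot be told apart.

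Thrombospondin 2, a trimeric thrombospondin that shapes collagen fibrils and restrains vessel growth, was the next largest. Thbs2 read 6.11, 6.13, 6.18 and 6.27 in samples labelled Fgf10+/-, against 6.83, 6.93, 7.02 and 7.38 on wild-type arrays. The samples labelled Fgf10+/- were tighter than the wild-type arrays (SD 0.07 against 0.24). The gap between the groups was 0.56, with wild-type array 4 the highest of the 8. Thbs2 differed by -0.87 on the log2 scale (limma adjusted p = 0.0442, 95% CI -1.26 to -0.48).

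Thrombospondin 1, its closest relative in structure, lay apart in the same direction but did not pass. Thbs1 read 10.98, 10.73, 10.86 and 10.56 in samples labelled Fgf10+/-, against 11.41, 11.22, 11.06 and 11.34 on wild-type arrays. The highest array labelled Fgf10+/-, array 1, came within 0.08 of the lowest wild-type array, array 3. Thbs1 differed by -0.48 on the log2 scale (limma adjusted p = 0.0572, 95% CI -0.70 to -0.25), and without wild-type array 3 it was -0.54 and passed (limma adjusted p = 0.0417). Platelets also carry thrombospondin 1. None of the 6 platelet and megakaryocyte markers was called, all 6 had a negative sign, and their median log2 fold change was -0.43. The 1 with an unadjusted limma p below 0.05 was Pf4, at -0.67 (limma adjusted p = 0.0799), and its groups overlapped. Array 2 labelled Fgf10+/- was the lowest of the 8 for all 6 platelet and megakaryocyte markers. Their score ranged from -1.12 to 0.27 with the Fgf10+/- label, against -0.18 to 0.49 in wild type, and overlapped. Their part in the Thbs1 values was not tested.

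The pentameric thrombospondins, best known from cartilage, tendon and heart, overlapped between the groups. Thbs3 read 11.90, 11.84, 11.86 and 11.83 in samples labelled Fgf10+/-, against 11.47, 11.83, 11.37 and 11.86 on wild-type arrays. Wild-type arrays 2 and 4 sat level with the samples labelled Fgf10+/-, and wild-type arrays 1 and 3 sat below them. Thbs3 differed by 0.23 on the log2 scale (limma adjusted p = 0.452, SE 0.11), and the dimmer of the 2 Thbs3 features gave 0.10.

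Thbs4 was the dimmest of the 10 and read 3.76, 2.96, 2.43 and 3.01 in samples labelled Fgf10+/-, against 3.09, 2.93, 3.95 and 3.44 on wild-type arrays. Its means, 3.04 with the Fgf10+/- label and 3.35 in wild type, stood near the filter level of 2.76, array 3 labelled Fgf10+/- lay below that level, and whether any of these values lay above background is unknown. Thbs4 differed by -0.32 with a wide interval (limma adjusted p = 0.832, 95% CI -1.16 to 0.53). Of 6 cartilage markers only Col2a1 passed the filter, at means of 2.86 with the Fgf10+/- label and 3.37 in wild type, and the defining markers Acan and Matn1 lay below it. Thbs4 and Tgfbi lie on chromosome 13, as Fgf10 does, and neither passed the test.

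Periostin, a product of fibroblasts that aids collagen cross-linking, was lower in lungs labelled Fgf10+/-. Postn read 10.99, 10.93, 10.92 and 11.21 in samples labelled Fgf10+/-, against 11.41, 11.69, 11.49 and 11.39 on wild-type arrays. Array 4 was the highest of those labelled Fgf10+/- and wild-type array 4 the lowest of the wild-type arrays, with 0.18 between them. Postn differed by -0.48 on the log2 scale (limma adjusted p = 0.0307, 95% CI -0.68 to -0.28). The 2 groups had nearly the same spread, with SDs of 0.14 in both.

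Tgfbi, the relative of periostin named for its induction by TGF-beta, did not pass the test. Tgfbi read 14.27, 14.24, 14.47 and 14.49 in samples labelled Fgf10+/-, against 14.05, 14.35, 14.23 and 14.51 on wild-type arrays. The groups overlapped, and the log2 difference was 0.08 (limma adjusted p = 0.821, 95% CI -0.13 to 0.29). The interval excludes a fall as large as the point estimate for Postn, but the difference between the 2 genes was not itself tested.

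Fibronectin, the adhesive glycoprotein that cells assemble into fibrils, lay apart without passing. Fn1 read 14.21, 14.25, 14.27 and 14.24 in samples labelled Fgf10+/-, against 14.38, 14.69, 14.45 and 14.85 on wild-type arrays. The samples labelled Fgf10+/- differed from each other by less than 0.1, and wild-type arrays 2 and 4 stood above wild-type arrays 1 and 3. Fn1 differed by -0.35 on the log2 scale (limma adjusted p = 0.122, 95% CI -0.55 to -0.15). It was -0.42 without wild-type array 1, where it passed (limma adjusted p = 0.0379), and -0.26 without wild-type array 4.

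Tenascin C, a large glycoprotein of growing and wounded tissue, overlapped between the groups. Tnc read 7.03, 6.62, 6.07 and 6.57 in samples labelled Fgf10+/-, against 6.57, 7.26, 6.53 and 7.25 on wild-type arrays. Wild-type arrays 2 and 4 were the highest of the 8, and wild-type arrays 1 and 3 lay among the samples labelled Fgf10+/-. Tnc differed by -0.33 on the log2 scale (limma adjusted p = 0.668, 95% CI -0.86 to 0.20), and the other Tnc feature gave -0.29.

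Sparc, a collagen-binding protein abundant in young mesenchyme, had 2 features that read very differently. The brighter feature, which represents the gene here, read 15.91, 15.84, 15.88 and 15.82 in samples labelled Fgf10+/-, against 15.93, 15.89, 15.89 and 15.95 on wild-type arrays. These values are close to the highest value in the table, 15.99, and the feature differed by -0.05 on the log2 scale (limma adjusted p = 0.794, 95% CI -0.18 to 0.07). The dimmer feature read 10.15, 10.74, 10.80 and 10.20 in samples labelled Fgf10+/-, against 10.32, 11.18, 11.03 and 11.45 on wild-type arrays. Its difference was -0.52 (95% CI -0.98 to -0.07), which did not pass either (limma adjusted p = 0.382 over all named features).

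The promoters of the 3 genes that fell are shown, and matches in genes that were not called are named after them. RefSeq windows of 300 bases, from 250 bases before to 50 bases after an annotated start (assembly GRCm38.p6, 5′ to 3′ on the gene's strand), were found for 8 of the 10 genes. Capitals mark letters of the motifs searched, on either strand. These were the TATA box, TATAAA, then the box bound by nuclear factor Y, CCAAT, then the core site of SMAD proteins, CAGAC, and the PEA3 site bound by ETS factors, AGGAAG. For Spp1 the upstream of 2 annotated starts is shown (chr5:104434861-104435160, plus strand), for Postn the downstream of 2 (chr3:54360857-54361156, plus strand), and for Thbs2 the only one (chr17:14694213-14694512, minus strand). The Spp1 and Postn windows were chosen with their matches known, and both are the window of the gene that holds TATAAA.
Spp1: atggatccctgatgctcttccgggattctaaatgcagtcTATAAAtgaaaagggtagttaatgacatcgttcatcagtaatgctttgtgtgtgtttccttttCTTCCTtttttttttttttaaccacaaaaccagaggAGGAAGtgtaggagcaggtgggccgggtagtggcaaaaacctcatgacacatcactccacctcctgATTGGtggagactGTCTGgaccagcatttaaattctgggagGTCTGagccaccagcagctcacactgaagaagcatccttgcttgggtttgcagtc
Postn: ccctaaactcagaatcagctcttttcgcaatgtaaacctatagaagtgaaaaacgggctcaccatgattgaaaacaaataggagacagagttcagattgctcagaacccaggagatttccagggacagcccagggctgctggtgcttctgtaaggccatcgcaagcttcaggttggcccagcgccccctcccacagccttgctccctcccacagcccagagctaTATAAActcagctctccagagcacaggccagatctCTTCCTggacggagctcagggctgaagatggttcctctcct
Thbs2: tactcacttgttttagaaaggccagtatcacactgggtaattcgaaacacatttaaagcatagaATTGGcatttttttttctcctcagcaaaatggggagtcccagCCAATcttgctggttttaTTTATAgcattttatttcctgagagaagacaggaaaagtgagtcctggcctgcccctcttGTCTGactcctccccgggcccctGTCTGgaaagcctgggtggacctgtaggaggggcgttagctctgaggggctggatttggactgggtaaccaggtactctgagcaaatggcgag
The Postn window holds TATAAA with its first base at -26 from the start. The Spp1 window holds it at -211, and the Thbs2 window holds it on the opposite strand at -126. Of 32851 RefSeq promoter windows 13.6% hold this motif on either strand. AGGAAG was found in the Spp1 and Postn windows and in 35.4% of all windows, CAGAC in the Spp1 and Thbs2 windows and in 49.6% of all, and CCAAT in the Spp1 and Thbs2 windows and in 37.4% of all. An AP-1 site (TGANTCA, in 7.81% of all windows) and a TEAD site (GGAATG, in 14.7%) were searched on both strands and were not among the letters of these 3 windows. Which motifs a gene has depends on the start taken. The other Spp1 window holds the SMAD and PEA3 motifs but neither the TATA box nor the nuclear factor Y motif, and the other Postn window holds all of these but the TATA box. These matches describe the letters only. No binding was measured.

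The spread within groups is given as a description. In 7 of the 10 genes the SD was smaller in samples labelled Fgf10+/- than in wild-type samples, as in 57.0% of all tested genes. In Fn1, Thbs3, Spp1 and Thbs2 the ratio of the 2 SDs, samples labelled Fgf10+/- over wild-type, was 0.12, 0.13, 0.14 and 0.30. A ratio below 0.333 was found in 8.32% of all tested genes, and a spread as lopsided the other way in 4.60%. No test was made of the spreads, which rest on 4 arrays each.

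The wild-type arrays did not order the genes alike. Array 1 was the highest wild-type array for Spp1 and Thbs1, array 2 for Postn and Tnc, array 3 for Thbs4, and array 4 for Thbs2, Thbs3, Tgfbi, Sparc and Fn1. The mesothelium score on wild-type arrays 1 to 4 was -0.69, 0.76, -0.40 and 2.17. Arrays 2 and 4 were thus the highest wild-type arrays for this score, as for Tnc, Thbs3, Tgfbi and Fn1. In the same order the fibroblast score was -0.20, 0.17, 0.14 and 0.33. The platelet and megakaryocyte score was 0.20, 0.49, -0.18 and 0.42, so both were also highest on arrays 2 and 4. In samples labelled Fgf10+/- the mesothelium score ranged from -1.23 to 0.11. Array 3 of that group had its highest value, together with the highest Fn1 of the group, at 14.27 against 14.21 on the lowest. Array 3 also had the group's lowest Tnc on the feature used here. On the other Tnc feature array 3 read 6.53, and array 2 was the lowest, at 6.30. None of the 4 mesothelial markers was called, 1 had an unadjusted limma p below 0.05, and their median log2 fold change was -0.92. Msln averaged 13.23 in samples labelled Fgf10+/-, against 13.89 in wild-type samples. The dimmer markers Upk3b and Wt1 differed by -1.15 (SE 0.70) and -1.19 (SE 0.67), and their groups overlapped. The part of mesothelium, fibroblasts or platelets in these values was not tested. Thbs2 stood at -0.76 without wild-type array 4 and at -0.91 without wild-type array 2.

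**Figure D2:**
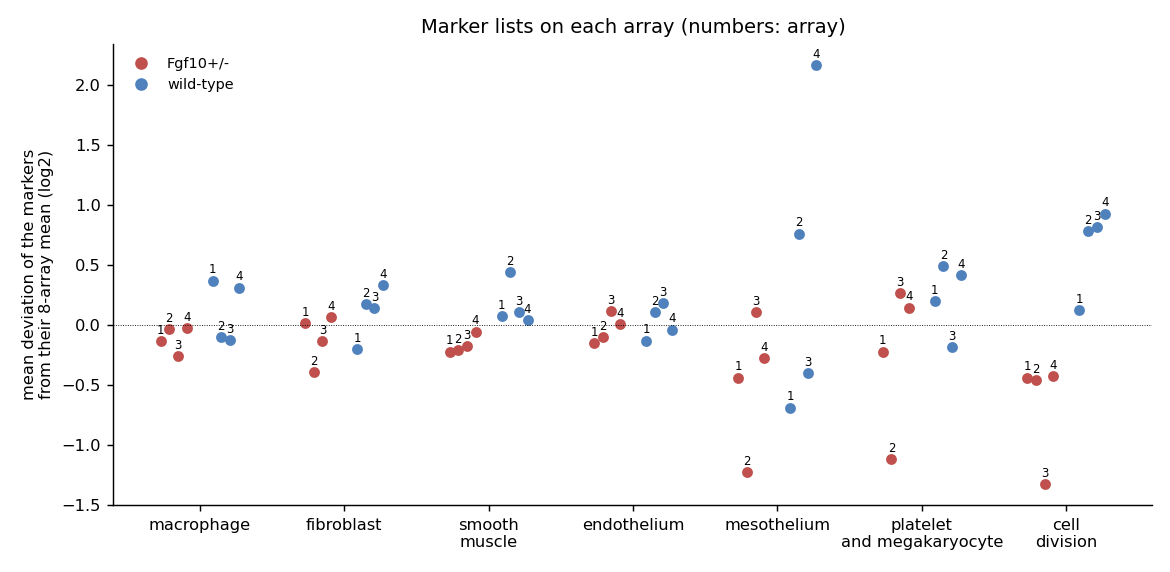
Mean deviation of each marker list from its 8-array mean (log2, vertical axis) on samples labelled Fgf10+/- (left of each pair, red) and wild-type arrays (right, blue), with array numbers. Macrophage scores overlap and are highest on wild-type array 1, and mesothelium scores are highest on wild-type array 4. Of the lists drawn, only smooth muscle and cell division do not overlap between the groups, both lower in samples labelled Fgf10+/-. Alveolar epithelium is not drawn.

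Markers of other cells of the lung were read on the same arrays. Of 9 fibroblast markers none was called and 2 had an unadjusted limma p below 0.05, with a median log2 fold change of -0.19 and mean levels of 10.89 to 11.35 in samples labelled Fgf10+/-, against 11.09 to 11.62 in wild-type samples. Those 2 were Dcn, at -0.72 with groups apart (limma adjusted p = 0.0553), and Fbn1, at -0.34 with groups overlapping (limma adjusted p = 0.283). Of the 9 markers, 7 had a negative and 2 a positive sign. Col1a1 averaged 13.53 ± 0.19 in samples labelled Fgf10+/-, against 13.72 ± 0.41 in wild-type samples (SD, n = 4 each). Of 7 smooth muscle markers none was called, 5 had an unadjusted limma p below 0.05, all 7 had a negative sign, and the median was -0.32, with mean levels of 10.68 to 10.85 in samples labelled Fgf10+/-, against 10.94 to 11.34 in wild-type samples. Wild-type array 2 was the highest of the 8 for all 7 smooth muscle markers. Endothelial markers had a median of -0.04 with none of 7 called and none at an unadjusted limma p below 0.05. Of 6 cell division markers 5 were tested, 4 were called lower, namely Mki67, Top2a, Ccnb2 and Birc5, and the median was -1.42. Array 3 labelled Fgf10+/- was the lowest of the 8 for all 5 of these. Of 6 alveolar epithelial markers Abca3 was called higher, by 0.48, and Nkx2-1 lay apart upward at 0.41 without passing (limma adjusted p = 0.0692). The epithelial score did not overlap, at 0.03 to 0.14 in samples labelled Fgf10+/-, against -0.11 to 0.00 in wild-type samples. The part of fibroblast, smooth muscle, epithelial and dividing cells in the values of the 10 genes was not tested.

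Beyond the 10 genes, 22 other matricellular genes were listed, of which 19 were tested and Spock1, Spock3 and Tnr lay below the filter. Of the 19, 2 were called lower, none higher, and 17 did not pass, with a median log2 fold change of -0.32 and 14 negative signs. Over all genes 0.569% were called lower and 0.226% higher, the median was 0.01, and 8395 of 17234 had a negative sign. Ccn4, a CCN family protein and WNT target also known as WISP1, read 9.34, 9.66, 9.22 and 9.35 in samples labelled Fgf10+/-, against 9.90, 10.29, 9.94 and 9.97 on wild-type arrays. The groups did not overlap, the log2 difference was -0.63 (limma adjusted p = 0.0266, 95% CI -0.89 to -0.37), and the other Ccn4 feature gave -0.56. Fstl1, a secreted relative of Sparc that antagonises BMP signalling in the lung, read 13.20, 13.04, 12.96 and 13.12 in samples labelled Fgf10+/-, against 13.33, 13.45, 13.42 and 13.52 on wild-type arrays. Its difference was small and tight, at -0.35 on the log2 scale (limma adjusted p = 0.046, 95% CI -0.50 to -0.19). With 1 array omitted, Ccn4 was called in 3 of 8 runs, without array 2 labelled Fgf10+/-, wild-type array 1 or wild-type array 3, and Fstl1 in 1, without wild-type array 1.

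Of the remaining genes on that list, Mgp, an inhibitor of matrix calcification, differed by -0.36 (limma adjusted p = 0.0597, SE 0.08), its groups apart. Smoc2, a calcium-binding relative of Sparc, had -0.92 (SE 0.29, limma adjusted p = 0.203), and its groups overlapped. The CCN genes Ccn1 and Ccn2, targets of the YAP pathway and chosen after their values were seen, had 0.00 (SE 0.17) and -0.20 (SE 0.10) and did not pass.

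**Figure D3:**
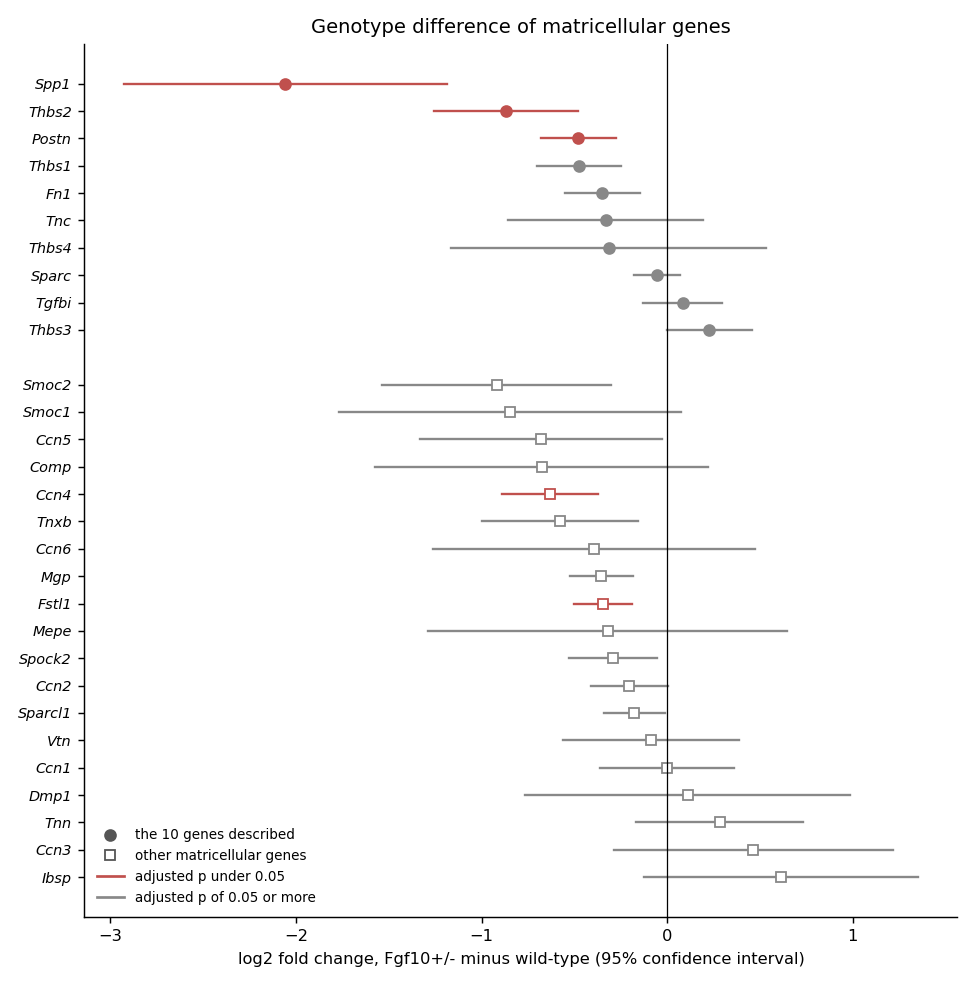
Log2 fold change, samples labelled Fgf10+/- minus wild-type, with 95% confidence interval from limma for the 10 matricellular genes (filled circles) and 19 other matricellular genes (open squares), 4 arrays per group. Red marks the 5 genes with an adjusted p below 0.05, namely Spp1, Thbs2, Postn, Ccn4 and Fstl1, all lower in samples labelled Fgf10+/-.

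No receptor passed the test. Of 18 listed receptors 17 were tested, and Itgb8 lay below the filter. None was called by limma, while 7 had an unadjusted limma p below 0.05, against 11.2% of all tested genes. Lrp1, the scavenger receptor that takes up thrombospondins, had a log2 fold change of -0.36 (SE 0.09, limma adjusted p = 0.104). The integrin subunit Itgb5, part of a receptor for osteopontin and vitronectin, had -0.34 (SE 0.09, limma adjusted p = 0.114), and Stab1, an endocytic receptor for Sparc, had -0.37 (SE 0.11, limma adjusted p = 0.185). The heparan sulfate proteoglycan Sdc1, made by epithelium, had 0.47 (SE 0.13, limma adjusted p = 0.117), with every array labelled Fgf10+/- above every wild-type array. Of the 17, 4 lay apart downward and 2 upward, against 3.51% and 3.13% of all genes.

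Among 15 TGF-beta ligands and proteases that process matricellular proteins, 13 were tested and Mmp7 and Mmp12 lay below the filter. The gelatinase Mmp2, which binds thrombospondin 2, was called lower and the other 12 did not pass, where 0.569% of all genes were called lower. Mmp2 read 10.61, 10.51, 10.40 and 10.70 in samples labelled Fgf10+/-, against 11.21, 11.32, 11.10 and 11.45 on wild-type arrays. The groups lay well apart, the log2 difference was -0.71 (limma adjusted p = 0.00568, 95% CI -0.92 to -0.50), and Mmp2 was called in all 8 runs with 1 array left out. The ligand gene Tgfb2 had -0.38 (SE 0.11, limma adjusted p = 0.157) with groups apart, Tgfb3 had -0.22 (SE 0.13) and the latent TGF-beta binding protein gene Ltbp1 -0.27 (SE 0.19).

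The 3 calls among the 10 genes were close to the threshold and depended on single arrays. Omitting 1 array at a time, Spp1 was called in 2 runs, without wild-type array 1 or 3. Postn was called in 2 runs, without wild-type array 1 or array 4 labelled Fgf10+/-, and Thbs2 in 1, without wild-type array 1 (limma adjusted p = 0.0427). None of the 3 was called when limma ran without its variance trend (limma adjusted p = 0.223 for Spp1, 0.13 for Thbs2 and 0.224 for Postn) or with the Xist level as a covariate (limma adjusted p = 0.0687, 0.0949 and 0.068 in the same order). Thbs2 was also not called with no filter on dim features (limma adjusted p = 0.0687) or with the most variable feature of each gene (limma adjusted p = 0.0606). The direction of all 3 was lower in every run. With 1 array omitted, Spp1 lay between -2.38 and -1.55, Thbs2 between -0.94 and -0.76 and Postn between -0.55 and -0.41. With wild-type array 1 and array 3 labelled Fgf10+/- both omitted, an alternative added once the data had been seen, Spp1 had -1.53 and was called, while Thbs2 had -0.94 and Postn -0.48 and were not.

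**Figure D4:**
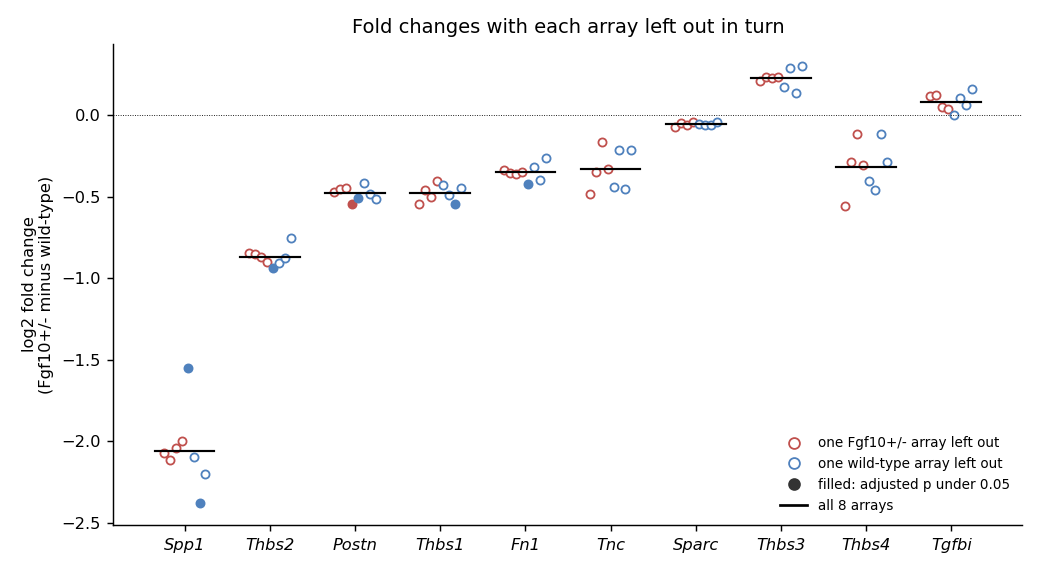
Log2 fold change (samples labelled Fgf10+/- minus wild-type, vertical axis) of the 10 genes with all 8 arrays (black line) and with 1 array left out, an array labelled Fgf10+/- (red) or a wild-type array (blue). Filled points have a limma adjusted p below 0.05. Spp1, Thbs2, Postn, Thbs1 and Fn1 stay below 0 in all 8 runs, while few of their points are filled.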

How the data were processed

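Per the labels, total RNA of 8 lung samples was amplified with an Agilent low-input kit and hybridised with Cy3. The deposited table holds log2 intensities of 62976 features, made by the authors with limma per the submitters' processing notes, which give no version. The 8 columns have nearly the same distribution, as quantile-normalized values do, and were used as deposited. Background correction and genome build are not given in the sources used here, no detection calls were used, and depth has no meaning for arrays, whose number limits the precision.

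Symbols came from the platform annotation (31465 features named, 31511 unnamed), of which 29036 were matched by accession to RefSeq (GRCm38.p6) to update symbols, and promoter windows came from RefSeq tables of the same assembly. Features with a missing value (189) or a mean below the 30th percentile (2.76) were removed, and the feature with the highest mean stood for each gene. The test was limma 3.58.1 under R 4.3.3 (lmFit, eBayes with a variance trend), samples labelled Fgf10+/- minus wild-type, two-sided, with p-values adjusted by Benjamini-Hochberg over 17234 genes and a threshold of 0.05. The fit was also run on simulated data with independent noise for each gene. That simulation held no effect shared by the genes of an array, and it cannot show how calls depend on single arrays. A marker score is the mean over a list of each array's value minus the gene's 8-array mean. The 10 genes, the lists and the rules were chosen with earlier results of these data known. Named from each further list are the called genes and the 4 with the smallest p. From marker lists the called genes, some of the defining markers and some further markers are named. No 2 arrays were identical.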

Additional observations from a re-analysis of the deposited data

How the results depend on the processing

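No called gene among the 10 changed its sign under any alternative run. The 1 reversal was Tgfbi, not called, at -0.032 with wild-type array 1 and array 3 labelled Fgf10+/- both omitted (added once the data had been seen), and its cause was not tested. The count of 3 lower genes among the 10 was 0 without the variance trend, 0 with the Xist level as a covariate, 1 with both arrays left out, and 2, without Thbs2, with no filter or the most variable feature. With the replicate number as a block it was 1, Spp1, although same-numbered arrays did not deviate together (correlations of -0.06 to 0.07) and the numbers do not pair the samples. With 1 array left out it ranged from 0 to 4, and the median of the 10 from -0.48 to -0.26. The count of 2 among other matricellular genes was 1 with no filter and with the replicate block, and 0 with the mean of a gene's features, the most variable feature, no variance trend, the Xist covariate or both arrays left out, and ranged from 0 to 2 with 1 array left out. Mmp2's list went to 0 without the variance trend and ranged from 1 to 2. Receptors had 0 calls in each of these runs, and no list had a higher call. Over all genes 137 were called, but 1 without the variance trend, 80 with the Xist covariate, and 34 to 173 with 1 array left out, fewest without wild-type array 2. The Fgf10 difference ranged from 0.14 to 0.35 with 1 array left out. Thbs4 had no value with the filter at the 50th percentile, which removed it. By exact permutation adjusted over all genes, Spp1, Thbs2, Postn, Thbs1 and Fn1 each had an adjusted p = 0.430, since 4 against 4 arrays cannot go below an unadjusted p of 0.0286. The causes of these shifts were not tested. Signal over background is unknown, which limits Thbs4 most, and Sparc is limited by the top of the scale.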

Other observations

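Xist, the transcript of the inactive X chromosome, read 6.56, 2.63, 1.93 and 6.73 on arrays 1 to 4 labelled Fgf10+/- and 6.29, 6.85, 2.01 and 6.80 on wild-type arrays. It was low on 2 arrays labelled Fgf10+/- and on 1 wild-type array. Dixon's test found no outlying value in the 28 groups of 4 values examined. These were the 10 genes, Fgf10, Ccn4, Fstl1 and Mmp2 in each group of arrays. The marker genes, among them Nppa with its high value on wild-type array 4, were not put to this test.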
